A study of Homo sapiens with 9 samples.

Results

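The protocadherin genes were taken as every probe set of the array that its annotation assigns to a single gene whose symbol begins with PCDH. This rule gave 75 probe sets of 48 gene symbols, out of 54613 probe sets for human transcripts, of which 41091 map to a single gene. The clustered genes on chromosome 5 gave 48 of the 75 probe sets: 7 of the alpha cluster (6 symbols), 24 of the beta cluster (17 symbols) and 17 of the gamma cluster (13 symbols). The non-clustered genes gave 26 probe sets of 11 symbols. The remaining probe set belongs to PCDH10-DT, the divergent transcript beside PCDH10.

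The RNA came from HSF-6, an established line of human embryonic stem cells, and was hybridised to 9 Affymetrix U133 Plus 2 arrays, 3 in each group. The groups were HSF-6(S9) grown with butyrate and DZNep, HSF-6(8) grown with butyrate and DZNep, and HSF-6(8) grown without them as the control. All cells were collected after 11 passages in their condition and 6 days of growth. Butyrate inhibits histone deacetylases, and DZNep inhibits S-adenosylhomocysteine hydrolase and lowers the Polycomb methyltransferase EZH2. No dose is given in the labels, both compounds were given together in each treated group, and no array of untreated HSF-6(S9) was analysed here. Subline and treatment therefore cannot be told apart between treated HSF-6(S9) and control HSF-6(8). The labels do not say that the 3 arrays of a group came from separate cultures, so p-values measure only the spread between these arrays, which may be technical.

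Protocadherins are the most numerous branch of the cadherin superfamily, single-pass membrane proteins with calcium-binding extracellular cadherin repeats. In the alpha and gamma clusters each variable exon has its own promoter and is spliced to constant exons shared by the cluster, whereas each beta gene is a single exon with its own promoter. Neurons switch on different combinations of these promoters, which gives each cell its own surface identity for self-recognition, and DNA methylation and CTCF with cohesin take part in that choice. The non-clustered genes lie on several chromosomes and most belong to the delta group, which acts in cell sorting and movement in the embryo and in wiring of the brain.

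On the linear MAS5 scale of the deposited values, array medians ran between 64.8 and 82.9. All 12 testable markers of pluripotent cells passed the filter on low values, which asked for at least 3 of 9 arrays above their own median. Their summed signal was 135719 to 225095 in treated HSF-6(S9), 144979 to 155765 in treated HSF-6(8) and 154389 to 199934 in the controls. POU5F1 was not testable, since its probe sets are assigned to more than 1 gene. The third arrays of the groups stood apart: after the group means were removed, they correlated with each other across groups (r of 0.41 to 0.59). Their r with the first and second arrays of other groups was negative (-0.48 to -0.22). Such negative values follow from the positive ones, since deviations from a group mean cancel within the group. Many of the values that turn on the third array of a group are given without it too, but not all of them.

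Of the 75 protocadherin probe sets, 28 of 21 symbols passed the filter on low values and 47 did not. By class, 3 of 7 alpha, 10 of 24 beta, 1 of 17 gamma and 14 of 26 non-clustered probe sets passed, and PCDH10-DT did not. The highest single value of any probe set that failed was 173, in PCDH10. By the filter these probe sets lay above the array median on fewer than 3 of 9 arrays, so they are described by their values and were not tested. In the gamma cluster the members that failed stayed at 126 or below on every array.

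In treated HSF-6(8) against control HSF-6(8), 0 of the 28 tested protocadherin probe sets were called higher and 0 lower by limma, where a call needed an adjusted p under 0.05 and at least 2-fold. Over all 29325 tested probe sets, 0.273% were called higher and 0.0273% lower. Without adjustment, 2 protocadherin probe sets were higher and 7 lower at a p under 0.05, where 5.11% and 2.41% of all tested probe sets were. In treated HSF-6(S9) against control HSF-6(8), 0 were called higher and 1 lower, against 0.314% and 0.075% of all tested probe sets, and 2 were higher and 7 lower without adjustment, where 6% and 5.27% of all tested probe sets were. Members such as PCDHB16 passed the filter only through a bright group, so these counts support nothing beyond themselves. The single call was PCDHB16. Between the treated sublines limma called 0 protocadherin probe sets in either direction, and 0% of all tested probe sets, with 0 protocadherin probe sets at an unadjusted p under 0.05, where 2.43% of all tested probe sets were. Both comparisons with the controls use the same 3 control arrays.

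The beta cluster was the class whose values lay mostly below the controls. Differences are given as group means of log2(signal + 16), which understates the change of dim genes. Over all 24 beta probe sets the median difference was -0.30 in treated HSF-6(8) against control and -0.18 in treated HSF-6(S9) against control, beside 0.02 and -0.02 over all human probe sets. The sign was negative for 16 of 24 in treated HSF-6(8) and 19 of 24 in treated HSF-6(S9), against 47.7% and 52.5% of all human probe sets. In 7 of 24 beta probe sets every treated HSF-6(8) array lay below every control array, and in 0 of 24 above, against 5.3% and 7.34% of all human probe sets. Treated HSF-6(S9) arrays lay wholly below the controls in 7 of 24 and wholly above in 0 of 24, against 7.21% and 6.84%. The 7 were PCDHB2, PCDHB3, PCDHB5, PCDHB6, PCDHB12, PCDHB13 and PCDHB16 for treated HSF-6(8), and PCDHB2, PCDHB5, PCDHB8, PCDHB12, PCDHB13, PCDHB15 and PCDHB16 for treated HSF-6(S9).

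Set against the mean of the controls array by array, the median of the 24 beta probe sets was -0.26, -0.30 and -0.46 on the treated HSF-6(S9) arrays. It was -0.27, -0.05 and -0.51 on the treated HSF-6(8) arrays and 0.05, 0.11 and -0.13 on the control arrays. The second treated HSF-6(8) array thus lay inside the range of the controls, and the other treated arrays lay below all of them. The medians are small and move with single arrays. In treated HSF-6(8) the median was -0.09 without the third treated array and -0.22 without the third array of each group. In treated HSF-6(S9) it was -0.04 without the third treated array and -0.44 without the second, and it was -0.33 and -0.39 without the second and the third control array.

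Beta genes are close paralogs, and 7 of the 24 beta probe sets carry the array maker's suffix for probes that may also bind other sequences. Among the probe sets wholly below the controls in treated HSF-6(8), PCDHB3, PCDHB6, PCDHB12 and PCDHB13 carried that suffix and PCDHB2, PCDHB5 and PCDHB16 did not. For genes with several probe sets, the values did not always go together. PCDHB13 had -0.61 and 0.19 in treated HSF-6(8) against control from its 2 probe sets, of which the first alone passed the filter. PCDHB4 had 0.21 from the probe set that passed and -0.45 from the one that did not.

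**Figure D1:**
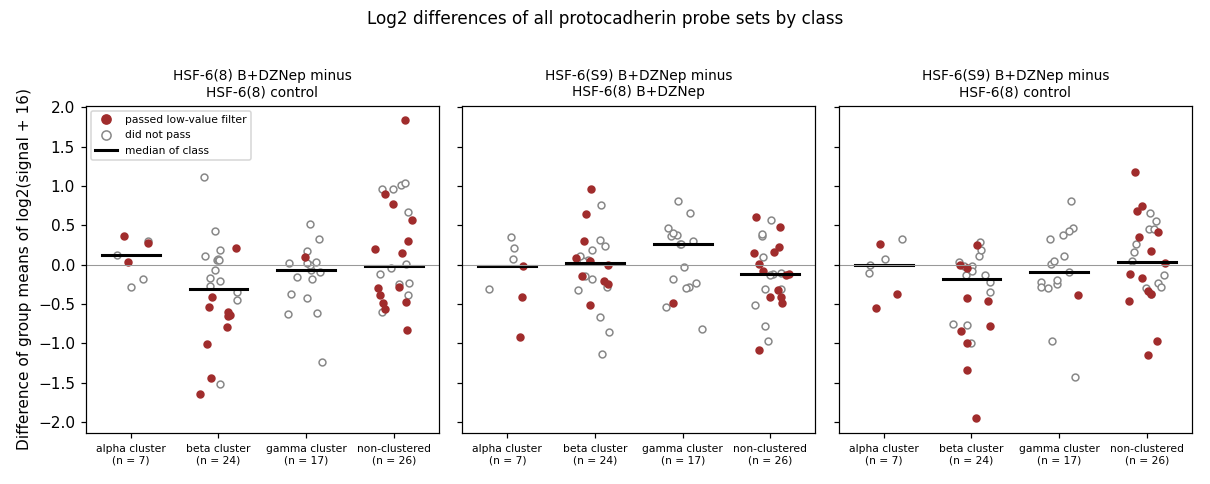
Differences of group means of log2(signal + 16) for the 74 probe sets of the 3 clusters and the non-clustered genes, 1 point a probe set, in 3 panels for the 3 comparisons. Filled points passed the filter on low values, open points did not, and the bar is the median of a class. The beta medians lie at -0.30 (treated HSF-6(8) minus control), 0.02 (between treated sublines) and -0.18 (treated HSF-6(S9) minus control), and PCDHB16 is the lowest filled point on the right at -1.95.

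PCDHB16 (probe set 232099_at) encodes a beta protocadherin and was the only member called in any comparison. Its signal was 15.9, 12.1 and 16.5 in treated HSF-6(S9), 40.2, 29.6 and 16.9 in treated HSF-6(8), and 118, 113 and 80.8 in the controls. The 3 groups do not overlap, and all treated arrays of both sublines lay below their own array's median, so the probe set passed the filter only through the controls. Group means were 14.8 ± 2.37 in treated HSF-6(S9), 28.9 ± 11.7 in treated HSF-6(8) and 104 ± 20.3 in control HSF-6(8) (SD, n = 3 each). PCDHB16 fell by 1.95 ± 0.23 on the log2 scale in treated HSF-6(S9) against control (limma, adjusted p = 0.0111). The call was lost without the third treated HSF-6(S9) array (adjusted p = 0.0501), without the first control array (0.0568), without the second control array (0.0641) and with a robust trend in limma's spread (0.0729), and over all alternatives the adjusted p ran between 0.00404 and 0.0729.

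In treated HSF-6(8) against control, PCDHB16 had a difference of -1.44 ± 0.23 with an adjusted p of 0.0515, and it was not called. With the prime marks of the array titles as a replicate block the adjusted p was 0.0337, and with 1 probe set a gene it was 0.0214. Both of these settings call it, and over all alternatives the adjusted p ran between 0.0214 and 0.269. Between treated HSF-6(S9) and treated HSF-6(8) the difference was -0.51 ± 0.23 (adjusted p = 1.00). The size depends on the number added before the logarithm: with 1 in place of 16 the difference from control was -2.72 in treated HSF-6(S9) and -1.87 in treated HSF-6(8), and with 64 it was -1.09 and -0.86. In bulk RNA, fewer cells that express a gene and less RNA per cell cannot be told apart.

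The promoter sequences of the beta genes are shown because the genes lie side by side and many of them had lower values together. RefSeq promoter windows (GRCh38.p14, 250 bases before the start to 50 after it) were held for 41 of the 48 symbols. The upstream part of the PCDHB16 window lies at chr5:141182137-141182386 on the + strand, just before the gene's first base, and holds 6 CpG sites.
PCDHB16 upstream: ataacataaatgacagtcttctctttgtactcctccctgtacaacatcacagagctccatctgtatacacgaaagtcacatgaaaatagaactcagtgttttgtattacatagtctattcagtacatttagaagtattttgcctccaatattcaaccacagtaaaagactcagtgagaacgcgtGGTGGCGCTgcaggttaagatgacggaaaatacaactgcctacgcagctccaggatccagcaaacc
The capitals mark GGTGGCGCT, a stretch that was picked after the beta windows were read. It contains CGCT, the core of the conserved element known from clustered protocadherin promoters.

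The stretch GGTGGCGCT, searched on both strands, was found in 13 of 14 beta windows, always on the gene's own strand and 2 to 84 bases before the start (median 66). PCDHB1 was the window without it. It was in 0 of 13 alpha, 0 of 25 gamma and 0 of 15 non-clustered windows, and in 0.501% of all 35116 windows. Stretches of 40 bases are set side by side, for the beta genes with the lowest differences by the naming rule (PCDHB16, PCDHB12, PCDHB5) and for PCDHB3 and PCDHB4, whose values did not lie below control in both treated groups. They lie on the + strand at chr5:141182306-141182345, chr5:141208639-141208678, chr5:141135175-141135214, chr5:141100389-141100428 and chr5:141121719-141121758.
PCDHB16: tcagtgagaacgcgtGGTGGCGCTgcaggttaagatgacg
PCDHB12: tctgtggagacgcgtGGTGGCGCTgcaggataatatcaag
PCDHB5: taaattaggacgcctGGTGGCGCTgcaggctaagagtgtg
PCDHB3: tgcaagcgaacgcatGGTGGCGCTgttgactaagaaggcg
PCDHB4: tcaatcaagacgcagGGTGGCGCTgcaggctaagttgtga
The stretch in capitals is present in genes whose values were lower in both treated groups and in genes whose values were not. PCDHB3 was lower in treated HSF-6(8) alone (-0.65). PCDHB1, whose window lacks the stretch, had 0.29 in treated HSF-6(S9) and 0.43 in treated HSF-6(8) from a dim probe set that failed the filter. The part of the stretch in these values was not tested.

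Other letters were also searched on both strands, as a description and not as binding sites. CGCT alone was in 51 of 52 clustered windows (98.1%), in 73.3% of non-clustered windows and in 70% of all windows. A simplified CTCF core motif was in 1.92% of clustered windows, 20% of non-clustered windows and 10.6% of all windows. TATAAA was in 11.5% of clustered windows, 26.7% of non-clustered windows and 11.5% of all windows. The median window held 7.5 CpG sites in the beta cluster and 11 in the non-clustered genes, beside 14 over all windows. A window without a match says only that these letters are not in it.

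PCDHB5 had 202, 279 and 194 in treated HSF-6(S9), 259, 338 and 199 in treated HSF-6(8), and 406, 487 and 490 in the controls. Each treated group lay wholly below the controls, and the treated groups overlapped. The difference from control was -0.997 ± 0.23 in treated HSF-6(S9) (adjusted p = 0.136) and -0.79 ± 0.23 in treated HSF-6(8) (adjusted p = 0.336). PCDHB2 had 1143, 908 and 918 in treated HSF-6(S9), 1138, 1049 and 665 in treated HSF-6(8), and 1489, 1453 and 1152 in the controls. Its treated arrays also lay wholly below the controls, by differences of -0.46 ± 0.24 in treated HSF-6(S9) and -0.54 ± 0.24 in treated HSF-6(8), neither of which passed the test (adjusted p = 0.53 and 0.657). Without the third array of treated HSF-6(8), the difference in that group was -0.31.

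PCDHB12 had 25.1, 17.8 and 67.3 in treated HSF-6(S9), 5.50, 70.3 and 17.2 in treated HSF-6(8), and 116, 123 and 85.8 in the controls. Like PCDHB16 it passed the filter only through the controls, and its probe set is of the kind that may bind other sequences. The treated arrays spread widely, and the differences of -1.34 ± 0.50 in treated HSF-6(S9) and -1.64 ± 0.50 in treated HSF-6(8) did not pass the test (adjusted p = 0.35 and 0.36). PCDHB13 had 118, 115 and 87.3 in treated HSF-6(S9), 105, 165 and 120 in treated HSF-6(8), and 194, 218 and 197 in the controls. These differences were -0.84 ± 0.20 in treated HSF-6(S9) (adjusted p = 0.148) and -0.61 ± 0.20 in treated HSF-6(8) (adjusted p = 0.434), also from a probe set that may bind other sequences.

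PCDHB3 was the beta member that differed most by subline among those tested with groups apart. It had 344, 633 and 438 in treated HSF-6(S9), 315, 316 and 237 in treated HSF-6(8), and 560, 539 and 317 in the controls. Treated HSF-6(S9) lay wholly above treated HSF-6(8), by 0.64 ± 0.29 (adjusted p = 1.00), or 0.42 without the second treated HSF-6(S9) array, while its mean of 471 ± 148 was close to the control mean of 472 ± 135 (SD, n = 3 each). The other probe sets of PCDHB3 stayed at 34.7 or below on every array. Between the treated sublines, 1 of 24 beta probe sets lay wholly higher in HSF-6(S9) and 2 wholly lower (PCDHB16 and the pseudogene PCDHB17P), against 2.89% and 5.04% of all human probe sets.

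Other tested beta members had smaller or less even differences. PCDHB15 had 214, 208 and 88.5 in treated HSF-6(S9), 298, 236 and 75.7 in treated HSF-6(8), and 247, 358 and 261 in the controls, and the third treated array of each subline was its lowest. Its difference from control was -0.78 in treated HSF-6(S9), or -0.41 without the third array of that group, and -0.64 in treated HSF-6(8), or -0.097 without the third array of that group. PCDHB14 had differences of -0.42 ± 0.26 in treated HSF-6(S9) and -0.41 ± 0.26 in treated HSF-6(8), with groups that overlapped. PCDHB4 was the only beta member that passed the filter with a positive difference in both, 0.26 ± 0.24 in treated HSF-6(S9) and 0.21 ± 0.24 in treated HSF-6(8). The tested probe set of the pseudogene PCDHB18P had -0.04 ± 0.57 in treated HSF-6(S9) and -1.01 ± 0.57 in treated HSF-6(8), with values of 21.5 to 168 among its treated HSF-6(8) arrays. Without the third array of treated HSF-6(8), the difference in that group was -0.48.

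**Figure D2:**
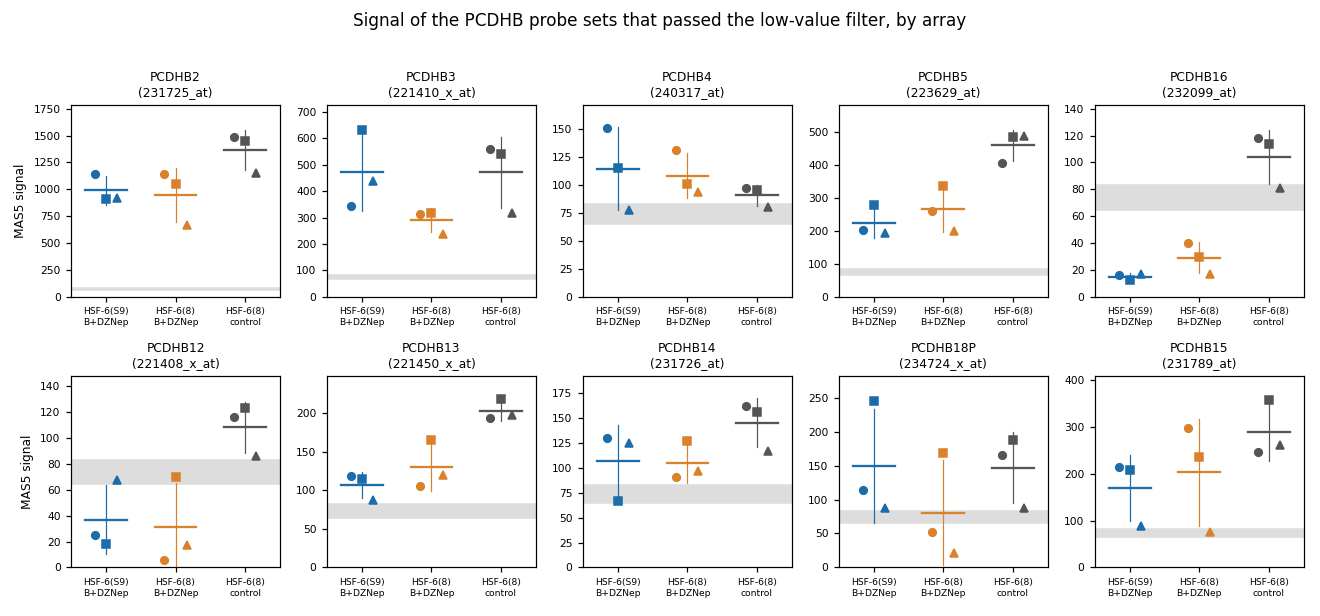
MAS5 signal (linear scale) of the 10 beta probe sets that passed the filter on low values, in the order treated HSF-6(S9), treated HSF-6(8) and control HSF-6(8). Circle, square and triangle are arrays 1, 2 and 3 of a group, the horizontal bar is the mean, the vertical line is 1 SD either way (cut at 0), and the grey band is the range of the array medians (64.8 to 82.9). PCDHB16 has its control arrays at 80.8 to 118 and its treated arrays at 12.1 to 40.2, and PCDHB3 has treated HSF-6(S9) beside the controls.

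**Figure D3:**
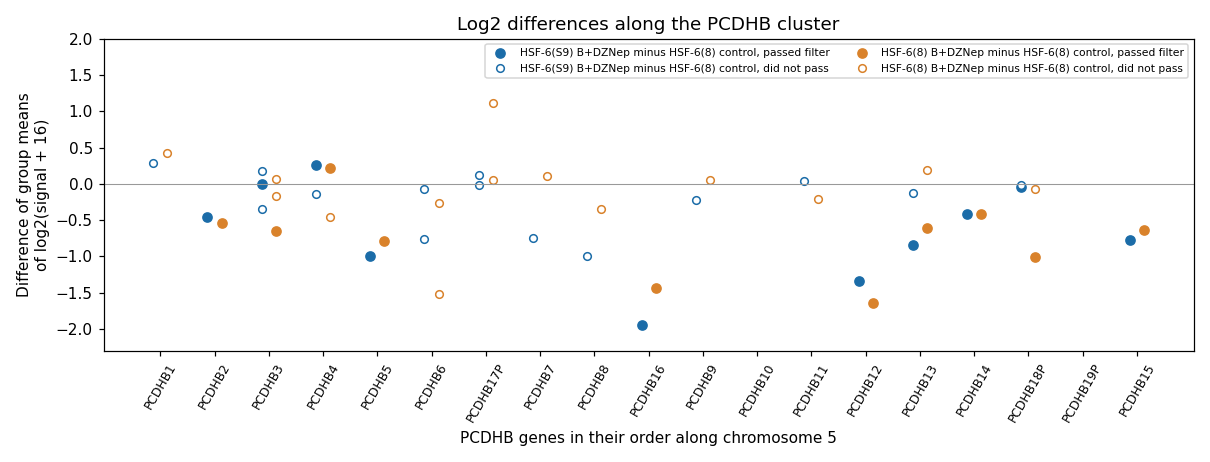
Differences from control of group means of log2(signal + 16) for the beta probe sets, with the genes in their order along chromosome 5 from PCDHB1 to PCDHB15. Filled points passed the filter on low values and open points did not. PCDHB10 and PCDHB19P have no single-gene probe set and stay empty, and the lowest points are PCDHB16 at -1.95 (treated HSF-6(S9)) and PCDHB12 at -1.64 (treated HSF-6(8)).

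Along chromosome 5 the beta genes with lower values were not in a single run. PCDHB16, at place 10 of 19, had -1.95 in treated HSF-6(S9) and -1.44 in treated HSF-6(8), between the dim PCDHB8 (-0.999 and -0.34) and the dim PCDHB9 (-0.22 and 0.06). PCDHB12 at place 14 and PCDHB13 at place 15 had lower values side by side, and PCDHB4, at place 4, had 0.26 and 0.21 next to PCDHB5 with -0.997 and -0.79. Genes just outside the clusters gave 24 single-gene symbols, of which 22 passed the filter and 0 were called in any comparison, with 3 at an unadjusted p under 0.05 in treated HSF-6(8) and 4 in treated HSF-6(S9) against control, where 7.52% and 11.3% of all tested probe sets passed that threshold in either direction. Their median difference was -0.12 in treated HSF-6(S9) and -0.08 in treated HSF-6(8). The largest were SPRY4, an inhibitor of receptor tyrosine kinase signalling, at -0.83 ± 0.25 in treated HSF-6(S9), and DND1, an RNA-binding protein of germ cells, at 0.84 ± 0.22 in treated HSF-6(8), neither of which passed the test (adjusted p = 0.245 and 0.233).

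The single-gene probe sets of the alpha cluster were dim, and 3 of 7 passed the filter. Over these 7 probe sets the median difference from control was -0.01 in treated HSF-6(S9) and 0.12 in treated HSF-6(8). The probe sets that passed belong to PCDHA9 and PCDHAC1. PCDHA9 had 69.9, 66.6 and 65.1 in treated HSF-6(S9), 43.3, 83.1 and 85.2 in treated HSF-6(8), and 48.2, 38.2 and 80.0 in the controls, which overlap and lie near the array medians. PCDHAC1, a C-type variable exon, had adjusted p-values of 0.726 and 0.81 in treated HSF-6(S9) and 0.999 in treated HSF-6(8) from its probe sets. PCDHAC2, the other C-type exon of the cluster, which in mice serves the spacing of serotonergic axons, was at 1.28 to 7.64 on all 9 arrays.

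The gamma cluster had 1 probe set that passed, of PCDHGB5. It had 85.2, 153 and 126 in treated HSF-6(S9), 208, 117 and 208 in treated HSF-6(8), and 182, 120 and 185 in the controls, and no group stood apart. Over the 17 gamma probe sets the median difference from control was -0.10 in treated HSF-6(S9) and -0.07 in treated HSF-6(8). PCDHGC3, a C-type gene, had 61.3, 55.0 and 59.5 in treated HSF-6(8) from its brighter probe set, wholly above treated HSF-6(S9) at 39.8, 45.7 and 51.1 and the controls at 40.7, 53.0 and 37.6. These values lie below every array median. The other PCDHGC3 probe set went the other way, with groups that overlapped. It had -0.16 in treated HSF-6(8) against control and 0.27 between treated HSF-6(S9) and treated HSF-6(8). PCDHGA4, named after its values were seen, had 17.3, 6.71 and 8.49 in treated HSF-6(S9), 18.5, 3.75 and 23.6 in treated HSF-6(8), and 54.8, 38.9 and 75.5 in the controls, and it failed the filter.

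The non-clustered genes had no common direction. Over their 26 probe sets the median difference was 0.03 in treated HSF-6(S9) and -0.02 in treated HSF-6(8) against control, and -0.12 between treated HSF-6(S9) and treated HSF-6(8). Treated HSF-6(8) lay wholly above the controls in 5 of 26 and wholly below in 2, against 7.34% and 5.3% of all human probe sets. The 5 were several probe sets of PCDH10 and dim ones of PCDH9 and PCDH15, and 1 of the 5 passed the filter. The 2 were both of PCDH7, so these counts hold the same gene more than once. Treated HSF-6(S9) lay wholly above the controls in 2 of 26 and wholly below in 3, against 6.84% and 7.21%. None of the 14 tested probe sets was called by limma in any comparison, and their smallest adjusted p was 0.139. PCDH7 lay on the lower side, and PCDH10, PCDH8 and PCDH18 on the higher side in 1 treated group or another.

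PCDH7 belongs to the first delta subgroup and is known in frogs from adhesion of the embryonic ectoderm. Its probe set 205534_at had 205, 108 and 165 in treated HSF-6(S9), 204, 178 and 207 in treated HSF-6(8), and 378, 265 and 465 in the controls. Both treated groups lay wholly below the controls, by -1.14 ± 0.27 in treated HSF-6(S9) (adjusted p = 0.139) and -0.83 ± 0.27 in treated HSF-6(8) (adjusted p = 0.4). Its probe set 228640_at had 665, 582 and 741 in treated HSF-6(S9), 686, 626 and 652 in treated HSF-6(8), and 889, 852 and 1013 in the controls, again wholly apart, with differences of -0.46 ± 0.17 and -0.48 ± 0.17. All 5 PCDH7 probe sets had negative differences from control, between -1.14 and -0.34 in treated HSF-6(S9) and between -0.83 and -0.25 in treated HSF-6(8). None passed the test.

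PCDH10 belongs to the second delta subgroup and binds the WAVE complex through NCKAP1, a link to the actin cytoskeleton. Its probe set 228635_at had 228, 115 and 311 in treated HSF-6(S9), 256, 318 and 1088 in treated HSF-6(8), and 126, 171 and 67.1 in the controls. Treated HSF-6(8) lay wholly above the controls, with 1 array far above the others, and treated HSF-6(S9) overlapped both groups. The difference from control was 1.83 ± 0.56 in treated HSF-6(8) (adjusted p = 0.358) and 0.75 ± 0.56 in treated HSF-6(S9) (adjusted p = 0.686). In treated HSF-6(8) it was 1.21 without the third array of that group, and 0.89 without the third array of each group. All 4 PCDH10 probe sets had positive differences in treated HSF-6(8), between 0.97 and 1.83, though the other probe sets were dim. The divergent transcript PCDH10-DT had 30.3, 21.7 and 22.1 in treated HSF-6(S9), 20.0, 14.5 and 72.2 in treated HSF-6(8), and 2.90, 12.6 and 2.28 in the controls, with its highest value on the same array.

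The third array of treated HSF-6(8) also had more summed signal from endoderm, mesoderm and fibroblast markers than any other array, and not from trophoblast or neural markers. Over 10 endoderm markers, 9 of which passed the filter (FOXA1 did not), its summed signal was 12599. The sum was 1839 to 2427 in treated HSF-6(S9), 1711 and 2333 on arrays 1 and 2 of treated HSF-6(8) and 833 to 1393 in the controls. Over 8 mesoderm markers, all of which passed, the sum was 7462 on that array. It was 1367 to 2333 in treated HSF-6(S9), 2008 and 1894 on arrays 1 and 2 of treated HSF-6(8) and 1270 to 1747 in the controls. Over 12 fibroblast markers, 10 of which passed (LUM and POSTN did not), the sum was 45647 on that array, 30184 to 35163 in treated HSF-6(S9), 30132 and 30834 on arrays 1 and 2 of treated HSF-6(8) and 25452 to 28602 in the controls. On that array 9 of 10 endoderm, 4 of 8 mesoderm (EOMES, KDR, MESP1 and MIXL1) and 6 of 12 fibroblast markers had their highest value, and HAND1, MEIS1, PDGFRA and TBX6 did not. So did 8 of 20 neural markers, GAD1, NEFL and NEFM among them, and 2 of 8 trophoblast markers, though the sums of these lists were not highest there. The 8 trophoblast markers summed to 4823 to 5854 in treated HSF-6(S9), 6000, 4677 and 4450 in treated HSF-6(8) and 4035 to 5410 in the controls. Of the 9 tested endoderm markers, 8 had a positive difference from control in treated HSF-6(S9) and 9 in treated HSF-6(8). Their medians were 1.40 and 1.81. By limma, 6 and 7 had an unadjusted p under 0.05, beside 11.3% and 7.52% of all tested probe sets, and 0 were called. GATA6 and TTR had 1.84 and 2.55 in treated HSF-6(S9), and 3.04 and 2.78 in treated HSF-6(8). Without the third array of that group the HSF-6(8) values were 2.13 and 2.10. The part of all these markers in the PCDH10 values was not tested.

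PCDH8, the paraxial protocadherin of frog and mouse embryos, acts in cell movement of the paraxial mesoderm. It had 527, 523 and 1227 in treated HSF-6(S9), 515, 685 and 260 in treated HSF-6(8), and 279, 318 and 301 in the controls. Treated HSF-6(S9) lay wholly above the controls, by 1.18 ± 0.40 (adjusted p = 0.296), or 0.78 without the third array of that group. Treated HSF-6(8) overlapped the controls, with a difference of 0.57 ± 0.40 (adjusted p = 0.909). The overlap came from array 3 (260) alone, since the other arrays of that group (515 and 685) lay above every control array. The difference from control was 0.95 without array 3 of treated HSF-6(8), and 0.96 without array 3 of each group. Between treated HSF-6(S9) and treated HSF-6(8) the difference was 0.61, or 0.21 to 0.90 with 1 array left out. Without array 3 of each group it was -0.17. The highest PCDH8 value was on array 3 of treated HSF-6(S9). There the mesoderm markers summed to 2333, against 2079 and 1367 on the other arrays of that group. Array 3 of treated HSF-6(8), with the highest mesoderm sum (7462), had the lowest PCDH8 value of the 9 arrays (260). The part of these markers in the PCDH8 values was not tested.

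PCDH18 belongs to the second delta subgroup. Its probe set 225975_at had 8042, 9917 and 9118 in treated HSF-6(S9), 7623, 7845 and 4427 in treated HSF-6(8), and 5272, 6324 and 5257 in the controls. Treated HSF-6(S9) lay wholly above both other groups, by 0.68 ± 0.24 against control (adjusted p = 0.324) and 0.48 ± 0.24 against treated HSF-6(8) (adjusted p = 1.00). The second of these was 0.22 when the third array of treated HSF-6(8) was left out and 0.21 when the third array of each group was. Its other probe set, 225977_at, had 600 ± 78.5 in treated HSF-6(S9), 559 ± 208 in treated HSF-6(8) and 657 ± 137 in the controls (SD, n = 3 each), so the probe sets of this gene did not give the same order of groups.

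PCDH17, also of the second delta subgroup, had 3 probe sets that passed. Their differences from control were all positive, between 0.18 and 0.41 in treated HSF-6(S9) and between 0.30 and 0.90 in treated HSF-6(8), with groups that overlapped. In treated HSF-6(8) they were 0.30, 0.77 and 0.90, or 0.17, 1.04 and 1.25 without the third array of that group. Without the third array of each group they were 0.24, 0.58 and 0.98. PCDH19, an X-linked gene whose loss causes an epilepsy, had 188 ± 85.9 in treated HSF-6(S9), 246 ± 193 in treated HSF-6(8) and 186 ± 87.1 in the controls. PCDH1, an adhesion protein of epithelia, had 574 ± 170 in treated HSF-6(S9), 510 ± 215 in treated HSF-6(8) and 646 ± 200 in the controls (SD, n = 3 each), and the third array was the lowest in every group. PCDH12, known from endothelial cells and trophoblast, had 18.3 to 100 over the 9 arrays with overlapping groups. The probe sets of PCDH9, PCDH11X and PCDH15, the last a part of the tip links of hair cells, all failed the filter and reached at most 60.9.

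**Figure D4:**
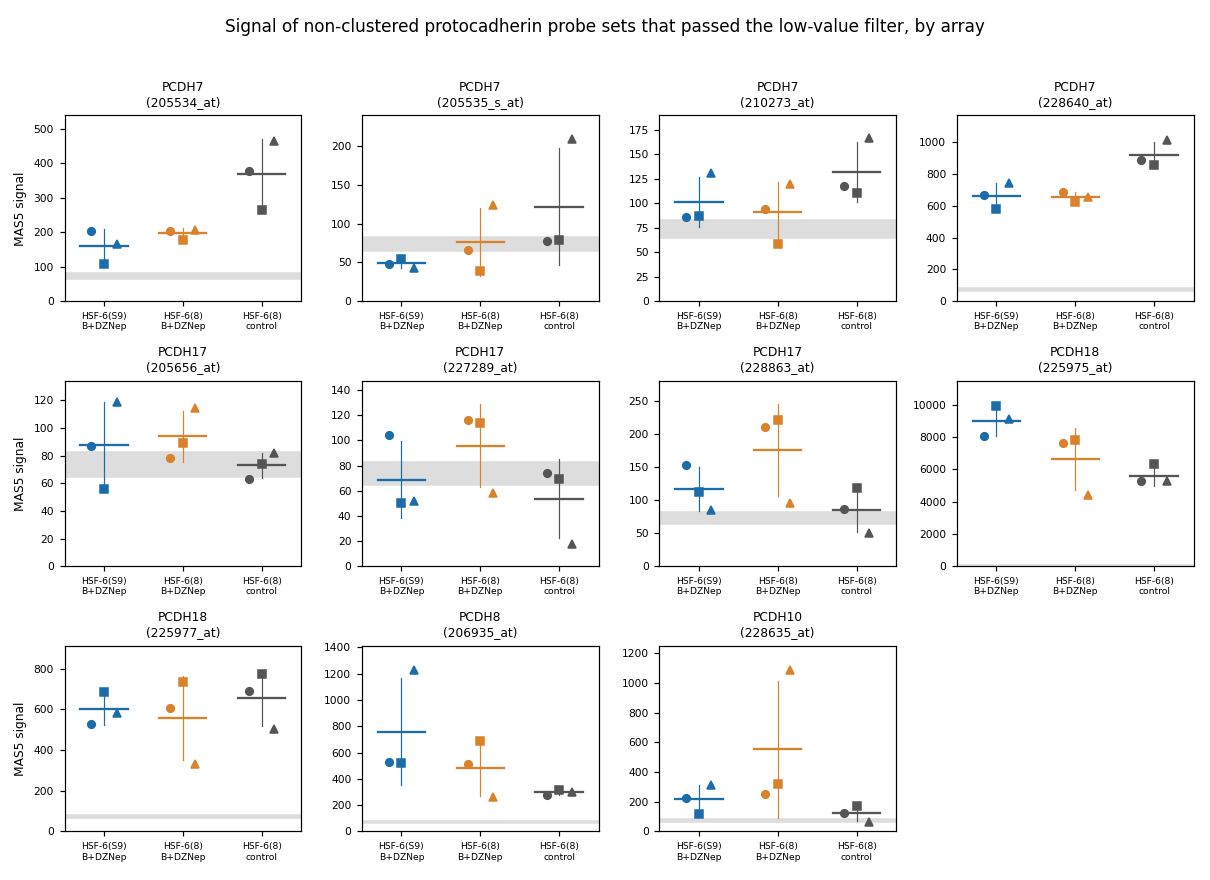
MAS5 signal (linear scale) of PCDH7, PCDH8, PCDH10, PCDH17 and PCDH18 probe sets that passed the filter on low values, in the order treated HSF-6(S9), treated HSF-6(8) and control HSF-6(8). Circle, square and triangle are arrays 1, 2 and 3 of a group, the horizontal bar is the mean, the vertical line is 1 SD either way (cut at 0), and the grey band is the range of the array medians. The controls are the highest group for PCDH7 205534_at and 228640_at, and the third treated HSF-6(8) array reaches 1088 for PCDH10.

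Genes known to regulate the clusters or to work with protocadherins were read from lists, and none was called in any comparison. Of the regulators, 23 were measured and all passed the filter, with 1 at an unadjusted p under 0.05 in treated HSF-6(8) and 2 in treated HSF-6(S9) against control, beside 7.52% and 11.3% of all tested probe sets. CTCF, which binds the clustered promoters, had 2964 ± 72.5 in treated HSF-6(S9), 2974 ± 134 in treated HSF-6(8) and 3088 ± 178 in the controls. UHRF1, which guides maintenance DNA methylation, had the largest difference, 1.27 ± 0.35 in treated HSF-6(S9) (adjusted p = 0.201) and 1.37 ± 0.35 in treated HSF-6(8) (adjusted p = 0.239). The next were LRIF1, a partner of SMCHD1, at -0.56 ± 0.24 in treated HSF-6(S9) and CBX5, a heterochromatin protein, at -0.42 ± 0.31 in treated HSF-6(8).

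Of the partners and processing factors, 15 were measured and all passed, with 2 at an unadjusted p under 0.05 in treated HSF-6(S9) and 1 in treated HSF-6(8) against control, beside 11.3% and 7.52% of all tested probe sets. RET, a receptor kinase that binds clustered protocadherins, had 208 ± 49.5 in treated HSF-6(S9), 282 ± 18.4 in treated HSF-6(8) and 434 ± 166 in the controls, a difference of -0.95 ± 0.31 and -0.52 ± 0.31 (adjusted p = 0.269 and 0.854). NCKAP1 had -1.02 ± 0.51 in treated HSF-6(S9) against control, or -0.30 without the second treated HSF-6(S9) array, and WASF3, a WAVE protein, had 0.60 ± 0.25 in treated HSF-6(8) against control. Neither passed the test.

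Among other cadherins and the catenins, 26 of 39 measured genes passed the filter, and 1 was called. FAT4, an atypical cadherin of planar polarity and the Hippo pathway, had 237, 197 and 349 in treated HSF-6(S9), 182, 219 and 176 in treated HSF-6(8), and 83.8, 95.2 and 73.8 in the controls. It rose by 1.43 ± 0.23 in treated HSF-6(S9) against control (adjusted p = 0.0422) and had 1.06 ± 0.23 in treated HSF-6(8) (adjusted p = 0.147). Both treated groups lay wholly above the controls. The call was lost when any array other than the second of treated HSF-6(S9) or the third of treated HSF-6(8) was left out. It was also lost without the third array of each group, with no filter on low values and with only the compared groups in the fit, and over all alternatives the adjusted p ran between 0.0172 and 0.137. The difference between the treated groups was not called for any gene of this list.

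Neurons express many protocadherins, so neural markers were read beside them. Of 20 measured, 15 passed, and 3 were called higher in each treated group against control: GAD1, NEFL and NEFM. Their differences were 3.08 ± 0.26, 2.73 ± 0.26 and 2.60 ± 0.32 in treated HSF-6(S9), and 3.16 ± 0.26, 3.03 ± 0.26 and 3.00 ± 0.32 in treated HSF-6(8). The call of NEFM in treated HSF-6(S9) was lost when any array of that group or the second control array was left out, at adjusted p-values of 0.0517 to 0.0562. In treated HSF-6(8) the limma adjusted p of NEFM ran between 0.00188 and 0.0503 over all alternatives, so that call was not kept in all of them. Without the third array of each group, NEFL was called in neither treated group (adjusted p = 0.0675 in treated HSF-6(S9) and 0.0598 in treated HSF-6(8)). SOX1, NEUROG2, ZIC1, LHX2 and ELAVL4 failed the filter. Of the 15 tested, 14 had a positive difference from control in treated HSF-6(S9) and 13 in treated HSF-6(8). The median differences were 0.75 and 0.69. By limma, 7 and 8 of the 15 had an unadjusted p under 0.05, beside 11.3% and 7.52% of all tested probe sets. The summed signal of the list was 53929 to 81832 in treated HSF-6(S9), 54724 to 57080 in treated HSF-6(8) and 47012 to 57939 in the controls, and its part in the protocadherin values was not tested. Trophoblast markers, read for the known site of PCDH12, had 6 of 8 that passed, with CDX2 and GCM1 failing, and GATA3 was called higher in both treated groups. It rose by 2.19 ± 0.22 in treated HSF-6(S9) against control (limma, adjusted p = 0.00441) and by 2.17 ± 0.22 in treated HSF-6(8) against control (adjusted p = 0.00413). Without the third array of each group these adjusted p-values were 0.0556 and 0.0463.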

How the data were processed

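The members, gene lists and alternatives were chosen with earlier results of these data known. Signal intensity per probe set was deposited by the authors, made with Affymetrix Expression Console and MAS5 per the submitters' processing notes. Tool versions and detection calls were not given in the sources used here. Deposited intensity was linear, with a mean (2% trimmed at each end) of 500.061 to 500.076 on every array. Single-gene probe sets were named from the platform annotation and the current symbols of all 75 members were equal. For the tests, 16 was added, log2 taken, and 29325 of 54613 human probe sets kept that had at least 3 of 9 arrays above their own median, with 62 controls left out. Limma 3.58.1 in R 4.3.3 (lmFit, eBayes) fitted 3 group means on 9 arrays with 6 residual and 3.2 prior degrees of freedom. P-values were two-sided and Benjamini-Hochberg adjusted over all kept probe sets in each of 3 comparisons. The steps were tested on simulated data.

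Members named with their values were those called, those with the 4 largest positive and negative differences among tested probe sets whose groups did not overlap, the brightest 6 clustered and 8 non-clustered probe sets, and PCDHB16, PCDH1, PCDH7, PCDH8, PCDH10, PCDH19, PCDHAC2 and PCDHGC3. Other members and sequences shown were named after their values were seen. From each list the called genes were named. From the regulators, the partners and the genes beside the clusters, which had no call, genes with the largest changes from control were named. CTCF was added later. The pluripotent, endoderm, mesoderm and fibroblast markers were read as sums and counts, and differences of single genes were given for endoderm alone. The labels do not explain the prime marks of the titles. Arrays of the same mark correlated after removal of group means, at 0.32, 0.28 and 0.59 between treated and control HSF-6(8). The r was 0.27, 0.22 and 0.41 between the treated sublines, and 0.12, 0.20 and 0.54 between treated HSF-6(S9) and control HSF-6(8). The marks were therefore used as a replicate block in an alternative fit. First and second arrays of unlike mark had 0.38 and 0.29 between treated and control HSF-6(8). They had 0.06 and 0.15 between the treated sublines, and 0.21 and 0.34 between treated HSF-6(S9) and control HSF-6(8). The marks are thus not shown to pair the first and second arrays. The number of arrays limits the precision.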

Additional observations from a re-analysis of the deposited data

How the results depend on the processing

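With the replicate block, or with 1 probe set a gene, 1 protocadherin probe set (PCDHB16) was called lower in treated HSF-6(8) against control, where the reported count is 0. The block changed no other member's call. The count of 1 lower in treated HSF-6(S9) against control was 0 with a 75th percentile filter, under which PCDHB16 is not tested, and 0 with a robust trend in the spread, and lay between 0 and 1 with each array left out; the cause was not tested. With the block, calls over all probe sets were more numerous, by over 1.5 times.

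With 1 added before log2, the median in treated HSF-6(8) against control was -0.29 over all clustered and -0.57 over beta probe sets. Over only the members that passed the filter, which favours those with a bright group, it was -0.57 and -0.64 in treated HSF-6(8), and -0.44 and -0.62 in treated HSF-6(S9). With the probe sets of a gene averaged, the non-clustered median was 0.14 in treated HSF-6(8) and the beta median -0.42 in treated HSF-6(S9), both against control. With each array left out, the medians ran as follows. In treated HSF-6(8) against control, the beta median lay between -0.48 and -0.093. Between treated HSF-6(S9) and treated HSF-6(8), the beta median lay between -0.21 and 0.054 and the non-clustered median between -0.19 and 0.081. In treated HSF-6(S9) against control, the clustered median lay between -0.23 and -0.050, the beta median between -0.44 and -0.045, and the non-clustered median between -0.069 and 0.22. The clustered and beta medians against control stayed negative in every alternative run, while the non-clustered medians in all comparisons and the clustered and beta medians between the treated sublines crossed 0. The called changes of PCDHB16, FAT4, GAD1, NEFL, NEFM and GATA3 kept their sign; the refits of the genes of other lists were added after the data were seen. Signal over background limits the tests: the filter left out 47 of 75 members. With no filter on low values all 75 were tested, and 0 were called in treated HSF-6(8) against control and 1 lower in treated HSF-6(S9) against control.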

Other observations

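Another 16 probe sets are assigned to a protocadherin together with at least 1 other gene, in most cases further protocadherins, and were left out by the rule. The probe set 223854_at, shared by PCDHB9 and PCDHB10, had 187, 92.7 and 86.0 in treated HSF-6(S9), 143, 101 and 84.8 in treated HSF-6(8), and 349, 280 and 194 in the controls. Both treated groups lay wholly below the controls, by -1.11 in treated HSF-6(S9) and -1.20 in treated HSF-6(8) on the scale of log2(signal + 16). These probe sets were picked after their values were seen, so the values carry no test.

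The annotation assigns 3 probe sets to all 15 genes of the alpha cluster. Of these, 223435_s_at had 580, 470 and 463 in treated HSF-6(S9), 643, 583 and 1019 in treated HSF-6(8), and 789, 837 and 1223 in the controls. Treated HSF-6(S9) lay wholly below treated HSF-6(8), by -0.52, and wholly below the controls, by -0.87. The probe set 210674_s_at had 642 ± 81.8 in treated HSF-6(S9), 743 ± 156 in treated HSF-6(8) and 808 ± 169 in the controls (SD, n = 3 each), and its groups overlapped. The probe set 224212_s_at had 42.0 ± 35.2 in treated HSF-6(S9), 60.7 ± 69.3 in treated HSF-6(8) and 68.1 ± 49.0 in the controls, and its groups overlapped too.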
